A study of Mus musculus with 7 samples.

Results

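Megakaryocyte and platelet genes were examined in haematopoietic stem cells sorted from the mouse fetal liver at embryonic day 14.5. The genes were Pf4, Itga2b, Itgb3, Gp9, Gp5, Vwf, Clec1b, Ppbp, Selp and Nfe2, chosen by name because they belong to the platelet programme that marks platelet-primed stem cells. All 11 probe sets annotated to one of these 10 genes alone were taken, out of 22626 probe sets and 12393 genes on the array. The stem cells came from 3 TFIIAα-βnc/nc samples, whose 2 copies of TFIIAα-β resist cleavage, and from 4 Wild-type samples. TFIIA is a general transcription factor, and no source used here limits the allele to one tissue. All embryos came from crosses of heterozygous (TFIIAα-βnc/+) parents, and littermates of like genotype were pooled. The TFIIAα-βnc/nc samples held 2, 2 and 4 embryos in replicates 1, 2 and 3, and the Wild-type samples 1, 1, 4 and 3 embryos in replicates 1, 2, 3 and 4. The sort took cells that carried Sca-1, c-Kit and CD150 but no lineage antigen, and the RNA of each sample was hybridised to 1 Affymetrix array.

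Megakaryocytes are the bone marrow and fetal liver cells that shed platelets, and they arise close to the stem cell. Some stem cells already carry transcripts of platelet proteins, among them von Willebrand factor, and such cells are biased towards making platelets. CD150, used in the sort, is also a surface marker that is high on stem cells with this bias. The programme comprises receptors that hold platelets to the vessel wall and to each other, proteins stored in their granules, and transcription factors such as NF-E2 that drive the last steps of platelet formation.

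The sort was checked against its markers first, though Ly6a, the gene of Sca-1, was not among those measured. Of 11 measured stem cell markers, 10 lay above the array median in every sample. None of 5 measured lineage antigens did so in any sample, but all 5 were T cell genes (Cd3d, Cd3e, Cd3g, Cd4 and Cd8a). They do not check for cells of other lineages. Of 5 measured erythroid markers, 2 (Klf1 and Epor) lay above the array median in every sample. The stem cell markers averaged 6.88, 6.91 and 7.22 in the TFIIAα-βnc/nc samples, against 7.02, 7.43, 7.43 and 7.51 in the Wild-type samples. Of the 11, the smallest p values belonged to Pdzk1ip1, Mllt3, Procr and Hlf. Pdzk1ip1 differed by −0.76 (SE 0.22), without overlap, and Mllt3, Procr and Hlf by −0.77, −0.77 and −0.49, none past the adjusted threshold (limma, adjusted p = 0.934 for each). Slamf1, the gene of CD150, differed by 0.20 (SE 0.20) and Kit by −0.49 (SE 0.32). Meis1 differed by 0.03, Cd34 by −0.13, Mecom by −0.15, Ptprc by −0.21 and Hoxa9 by −0.28. Levels here are log2 RMA intensities, and the array medians were 3.69 to 3.82. The mean levels of endothelial and of hepatocyte markers set the same 3 arrays apart, though not every marker did. The mean level of 16 endothelial markers was 6.65, 7.12 and 3.49 in TFIIAα-βnc/nc replicates 1, 2 and 3, against 6.91, 3.47, 3.48 and 3.29 in Wild-type replicates 1 to 4. The mean of 9 hepatocyte markers was 4.61, 5.16 and 3.40 in the TFIIAα-βnc/nc samples, against 4.24, 3.45, 3.16 and 3.41 in the Wild-type samples. In Wild-type replicate 1 Alb and Afp were high, at 6.12 and 6.58. Ttr read 3.46 there and 3.55 in Wild-type replicate 4, and Krt18 5.81 there and 6.45 to 6.57 in the other Wild-type samples. The endothelial marker Tie1 read 3.02 in TFIIAα-βnc/nc replicate 1 and 4.21 in Wild-type replicate 3. Macrophage markers, 13 of them measured, averaged 3.33, 4.25 and 5.06 in the TFIIAα-βnc/nc samples, against 3.88, 4.31, 2.84 and 3.47 in the Wild-type samples. Gtf2a1, the gene of the TFIIA large subunit, read 5.17, 6.16 and 5.92 in TFIIAα-βnc/nc, against 3.61, 5.27, 3.86 and 5.69 in Wild-type, which does not check the labels because a changed cleavage site need not alter the transcript.

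Of the 10 genes, 0 passed an adjusted p of 0.05 in limma's test over all 12393 genes (Benjamini-Hochberg), where 0.00807% of all genes passed. At an unadjusted p under 0.05, Clec1b was higher and Selp lower in TFIIAα-βnc/nc, where 4.65% of all genes met that mark. The groups did not overlap for Selp and Itgb3, both lower in TFIIAα-βnc/nc, where 3.07% of all genes were lower with no overlap and 6.30% did not overlap in either direction. Each difference is the mean log2 level in TFIIAα-βnc/nc less that in Wild-type. Their median over the 10 genes was −0.015, with 5 positive and 5 negative. Over all genes it was −0.0099, with 5955 positive and 6438 negative. By probe set, 0 of 11 passed over all 22626 probe sets, where 0.00442% of all passed, and 3 of 11 were lower in TFIIAα-βnc/nc with no overlap, where 2.81% of all were.

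Promoter sequences are shown for Clec1b and Selp, chosen for their unadjusted p under 0.05 in limma, and for Pf4, long used as a lineage marker. They run from 250 bases before to 50 bases after the RefSeq start of each gene in GRCm38.p6, written 5′ to 3′ on the strand of the gene. Capitals mark letters of GATA sites (AGATAA or TGATAA) and of ETS sites (GGAAGT), on either strand. The Clec1b window is chr6:129397047-129397346, the Selp window chr1:164115014-164115313 and the Pf4 window chr5:90772185-90772484, all on the plus strand.
Clec1b: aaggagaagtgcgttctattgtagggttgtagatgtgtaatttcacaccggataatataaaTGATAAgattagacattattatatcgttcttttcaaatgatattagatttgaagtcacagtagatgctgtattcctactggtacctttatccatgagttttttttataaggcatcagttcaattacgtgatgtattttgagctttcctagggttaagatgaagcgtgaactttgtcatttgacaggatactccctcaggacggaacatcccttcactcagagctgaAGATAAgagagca
Selp: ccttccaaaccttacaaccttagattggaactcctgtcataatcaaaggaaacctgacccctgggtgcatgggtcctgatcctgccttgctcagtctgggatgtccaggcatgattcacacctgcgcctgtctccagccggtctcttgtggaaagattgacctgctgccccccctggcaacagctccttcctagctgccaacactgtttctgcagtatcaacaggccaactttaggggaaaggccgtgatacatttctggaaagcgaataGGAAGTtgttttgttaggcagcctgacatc
Pf4: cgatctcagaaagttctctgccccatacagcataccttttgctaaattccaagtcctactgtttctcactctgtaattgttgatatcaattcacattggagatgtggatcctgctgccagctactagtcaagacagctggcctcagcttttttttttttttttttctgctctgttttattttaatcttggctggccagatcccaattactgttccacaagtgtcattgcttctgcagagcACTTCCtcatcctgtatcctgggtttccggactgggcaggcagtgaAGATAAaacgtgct
The Clec1b window held 2 GATA matches and no ETS match, the Selp window 1 ETS match and no GATA match, and the Pf4 window 1 of each. RefSeq promoters were found for 7 of the 10 genes. An ETS match lay in 6 of the 7, all but Clec1b, and in 23.8% of all 32851 promoters of that length. A GATA match lay in 3 of the 7, those of Pf4, Gp5 and Clec1b, and in 18.6% of all promoters. The NF-E2 letters TGAGTCA lay in 0 of the 7 and in 5.20% of all promoters. The RUNX letters TGTGGT lay in the Gp9 window and in 16.8% of all promoters. The matches describe these windows only and are not tested binding sites.

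**Figure D1:**
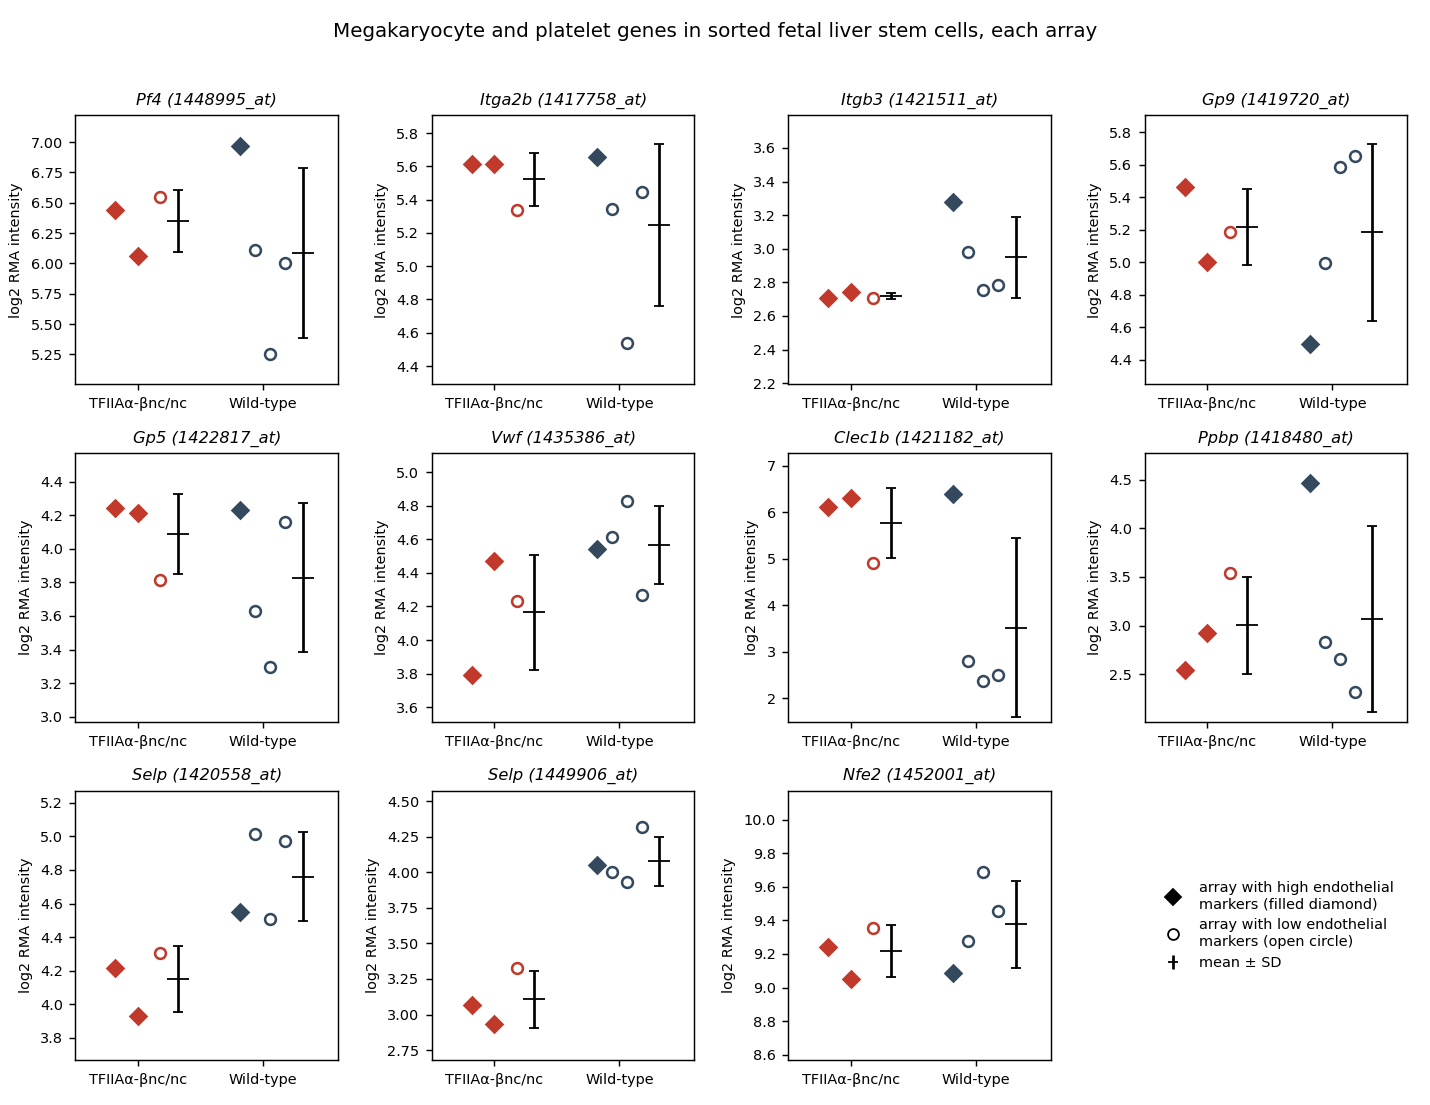
Log2 RMA intensity (vertical axes, a different range in each panel) of the 11 probe sets of the 10 genes in each TFIIAα-βnc/nc (left) and Wild-type (right) array, with the mean ± SD beside the points. Filled diamonds are the 3 arrays with high endothelial markers. Both Selp probe sets lie lower in every TFIIAα-βnc/nc array, and Clec1b is low in 3 Wild-type arrays only.

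Selp encodes P-selectin, an adhesion receptor kept in platelet granules and in endothelial storage bodies until the cell is activated. Its probe set 1449906_at read 3.07, 2.93 and 3.33 in TFIIAα-βnc/nc replicates 1, 2 and 3, against 4.05, 4.00, 3.93 and 4.32 in Wild-type replicates 1 to 4. The highest TFIIAα-βnc/nc sample lay below the lowest Wild-type sample. The means were 3.11 ± 0.20 (SD, n = 3) in TFIIAα-βnc/nc and 4.08 ± 0.17 (SD, n = 4) in Wild-type, with the signal 1.96-fold lower in TFIIAα-βnc/nc. The difference of −0.97 (SE 0.16, 95% interval −1.33 to −0.60) had an unadjusted p of 0.000194, the 9th smallest of 22626 probe sets, and an adjusted p of 0.487 over all of them (limma, Benjamini-Hochberg).

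The other Selp probe set, 1420558_at, gave the same order of the groups. It read 4.22, 3.93 and 4.31 in TFIIAα-βnc/nc, against 4.55, 5.01, 4.51 and 4.97 in Wild-type, again with no overlap. Its difference was −0.61 (SE 0.18, 95% interval −1.02 to −0.20), with an unadjusted p of 0.0086 and an adjusted p of 0.934 over all genes (limma). The TFIIAα-βnc/nc levels of 1449906_at lay below the array medians, where RMA tends to understate differences.

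Endothelial cells also make P-selectin. Among the 3 arrays with high endothelial markers 1449906_at read 3.07 and 2.93 in TFIIAα-βnc/nc and 4.05 in Wild-type, and among the other 4 arrays it read 3.33 in TFIIAα-βnc/nc and 3.93 to 4.32 in Wild-type. The mean of stem cell markers, given above, was also lower in TFIIAα-βnc/nc replicates 1 and 2 than in every Wild-type sample, and its part in the Selp difference was not tested. With mean endothelial level as a covariate the difference of 1449906_at was −0.89 and that of 1420558_at −0.49, and neither passed after adjustment (limma, adjusted p = 0.954 and 0.911). In these bulk samples, fewer cells with a transcript and less of it per cell cannot be told apart.

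Clec1b encodes CLEC-2, the platelet receptor for podoplanin, and in the mouse it is also a gene of liver sinusoidal endothelium and of liver macrophages. It had the widest range of the 10 genes, 4.03 log2 units. The TFIIAα-βnc/nc samples read 6.12, 6.30 and 4.92 in replicates 1, 2 and 3, against 6.39, 2.81, 2.37 and 2.51 in Wild-type replicates 1 to 4. All 3 TFIIAα-βnc/nc samples were high, as was Wild-type replicate 1, so the groups overlapped through that sample. It averaged 5.78 ± 0.75 (SD, n = 3) in the TFIIAα-βnc/nc samples against 3.52 ± 1.93 (SD, n = 4) in the Wild-type samples. The difference of 2.26 (SE 0.89, 95% interval 0.27 to 4.26) had an adjusted p of 0.934 over all genes (limma, Benjamini-Hochberg). Its unadjusted p in limma was 0.0303, and 0.117 without moderation, which draws the variance of each gene towards that of all genes. With 1 array left out the unadjusted limma p was 0.0718 to 0.0880, apart from 2 fits. Those were without TFIIAα-βnc/nc replicate 3 (0.0250) and without Wild-type replicate 1 (6.27e-06).

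Clec1b was high in each of the 3 arrays with high mean levels of endothelial and hepatocyte markers, of both genotypes. It read 6.12 and 6.30 there in TFIIAα-βnc/nc and 6.39 in Wild-type. In the 4 arrays with low endothelial markers it read 4.92 in TFIIAα-βnc/nc replicate 3 and 2.37 to 2.81 in the Wild-type samples. With these 4 arrays alone the difference was 2.36 (limma, adjusted p = 0.127), where the single TFIIAα-βnc/nc sample was assumed to vary like the Wild-type ones. With mean endothelial level as a covariate it was 1.14 (limma, adjusted p = 0.911).

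Without Wild-type replicate 1 the Clec1b difference was 3.22 and passed over all genes (limma, adjusted p = 0.0259), together with Vcam1 and Galc. In that comparison both TFIIAα-βnc/nc samples with high endothelial markers were kept while the Wild-type sample with them was left out, and adjusted over all 22626 probe sets the p was 0.059. Vcam1, an adhesion molecule of endothelium and liver macrophages, showed a like pattern at 5.17, 5.64 and 5.14 in TFIIAα-βnc/nc, against 5.40, 3.18, 2.64 and 2.07 in Wild-type. The mean of macrophage markers was highest in TFIIAα-βnc/nc replicate 3. Cd5l, a macrophage scavenger protein, read 3.82, 5.49 and 6.87 in TFIIAα-βnc/nc, against 4.78, 5.88, 2.88 and 3.77 in Wild-type. Slc40a1, another of these markers, read 5.51, 6.96 and 7.64 in TFIIAα-βnc/nc, against 5.87, 6.26, 2.55 and 4.78 in Wild-type. Vcam1, Slc40a1 and Cd5l differed by 2.00, 1.84 and 1.07. Of the other measured macrophage markers, Hmox1 differed by 1.14, Marco by 0.56, Csf1r by 0.45, C1qa by 0.43 and C1qb by 0.31. C1qc differed by 0.21, Spic by 0.19, Adgre1 by 0.04, Vsig4 by −0.07 and Cd68 by −0.53. The part of macrophage transcripts in the Clec1b level was not tested.

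**Figure D2:**
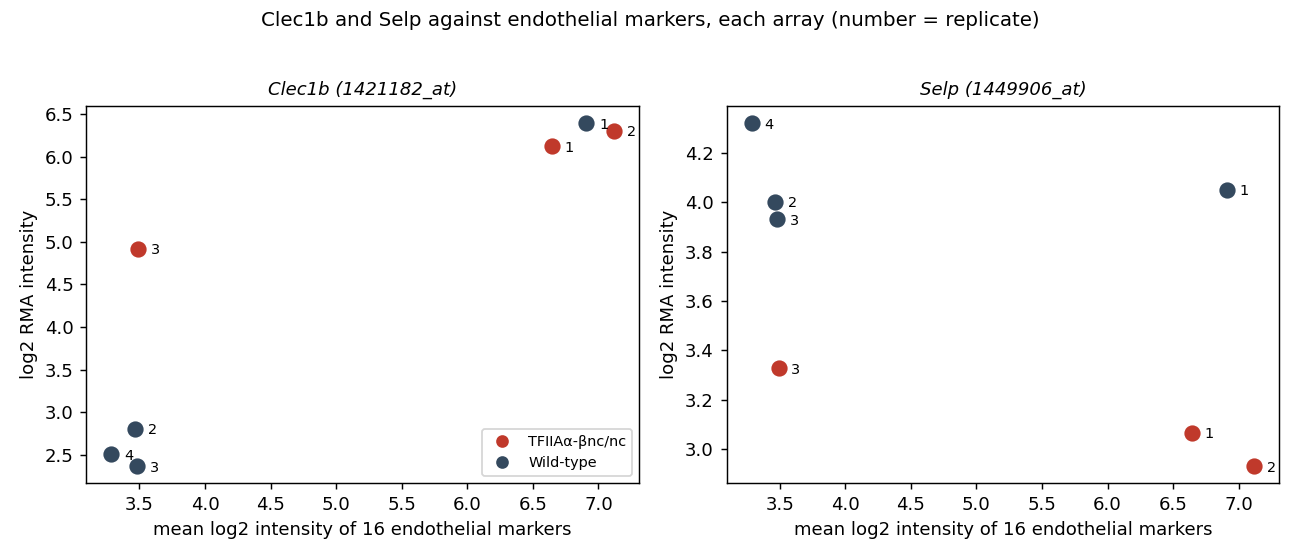
Log2 RMA intensity of Clec1b (left) and of Selp probe set 1449906_at (right) against the mean log2 intensity of 16 endothelial markers, with 1 point per array, its replicate number beside it and colour for genotype. Clec1b is high in the 3 arrays at the right and at 4.92 in TFIIAα-βnc/nc replicate 3, while Selp is lower in TFIIAα-βnc/nc at both ends of the axis.

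The transcription factor and the adhesion receptors of the platelet surface were measured next. Nfe2, the haematopoietic subunit of NF-E2 that pairs with small Maf proteins, read 9.24, 9.05 and 9.35 in TFIIAα-βnc/nc, against 9.09, 9.28, 9.69 and 9.45 in Wild-type. The groups overlapped, and the difference of −0.16 (SE 0.18) had a 95% interval of −0.56 to 0.24. That interval was the narrowest of the 10 genes after Itgb3. Leaving out 1 array gave −0.26 (Wild-type replicate 1), −0.077 (TFIIAα-βnc/nc replicate 2) and −0.055 (Wild-type replicate 3), and the endothelial covariate −0.028.

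Itga2b and Itgb3 encode the αIIb and β3 chains of the platelet fibrinogen receptor, and αIIb (CD41) is also an early marker of embryonic blood. Itga2b read 5.61, 5.61 and 5.34 in TFIIAα-βnc/nc, against 5.66, 5.34, 4.54 and 5.44 in Wild-type. Apart from Wild-type replicate 3, the lowest sample, the arrays lay within the same narrow range, and the difference was 0.28 (SE 0.25, 95% interval −0.29 to 0.84). Without Wild-type replicate 3 it was 0.041, and with mean endothelial level as a covariate 0.11. Itgb3 read 2.71, 2.74 and 2.71 in TFIIAα-βnc/nc, against 3.28, 2.98, 2.75 and 2.79 in Wild-type. The groups did not overlap, but the highest TFIIAα-βnc/nc and the lowest Wild-type sample differed by little. All 7 Itgb3 values lay below the array medians, so its difference of −0.23 (SE 0.16) concerns a dim probe set, with an adjusted p of 0.934 (limma over all genes), and was −0.12 without Wild-type replicate 1.

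Gp9 and Gp5 encode subunits of the platelet receptor for von Willebrand factor. Gp9 read 5.46, 5.002 and 5.19 in TFIIAα-βnc/nc, against 4.50, 4.997, 5.59 and 5.65 in Wild-type. The TFIIAα-βnc/nc samples lay inside the Wild-type range, and the difference was 0.03 (SE 0.28, 95% interval −0.59 to 0.66). Gp5 read 4.24, 4.21 and 3.81 in TFIIAα-βnc/nc, against 4.23, 3.63, 3.30 and 4.16 in Wild-type, with a difference of 0.26 (SE 0.24) and overlapping groups. That difference was 0.083 without Wild-type replicate 3, 0.39 without Wild-type replicate 1, 0.40 without TFIIAα-βnc/nc replicate 3 and 0.068 with mean endothelial level as a covariate. Gp1bb, another subunit of that receptor, differed by 0.11 (SE 0.37).

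Vwf encodes von Willebrand factor, the ligand of that receptor and the marker of platelet-biased stem cells. It read 3.79, 4.47 and 4.23 in TFIIAα-βnc/nc, against 4.54, 4.61, 4.83 and 4.27 in Wild-type. The lowest 2 values were TFIIAα-βnc/nc samples, but TFIIAα-βnc/nc replicate 2 lay above Wild-type replicate 4. The difference of −0.40 (SE 0.20, 95% interval −0.85 to 0.05) did not pass (limma, adjusted p = 0.934 over all genes). Without TFIIAα-βnc/nc replicate 1 it was −0.21. Vwf is also an endothelial gene. In the arrays with high endothelial markers it read 3.79 and 4.47 in TFIIAα-βnc/nc and 4.54 in Wild-type, and in the others 4.23 in TFIIAα-βnc/nc and 4.27 to 4.83 in Wild-type.

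Pf4 and Ppbp encode platelet factor 4 and the precursor of platelet basic protein, chemokines packed into α-granules, whose RefSeq promoters lie close together on chromosome 5. Pf4 read 6.44, 6.06 and 6.55 in TFIIAα-βnc/nc, against 6.97, 6.11, 5.25 and 6.004 in Wild-type. The TFIIAα-βnc/nc samples lay inside the Wild-type range, with a difference of 0.27 (SE 0.34, 95% interval −0.50 to 1.04). Ppbp read 2.55, 2.92 and 3.54 in TFIIAα-βnc/nc, against 4.47, 2.83, 2.65 and 2.31 in Wild-type, and its difference of −0.06 (SE 0.47) had an interval of −1.12 to 0.99. Wild-type replicate 1 was the highest array for both chemokines, and 6 of 7 Ppbp values lay below the array medians. Without that sample the Ppbp difference was 0.40 and the Pf4 difference 0.56, whereas without Wild-type replicate 3 the Pf4 difference was −0.0098.

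**Figure D3:**
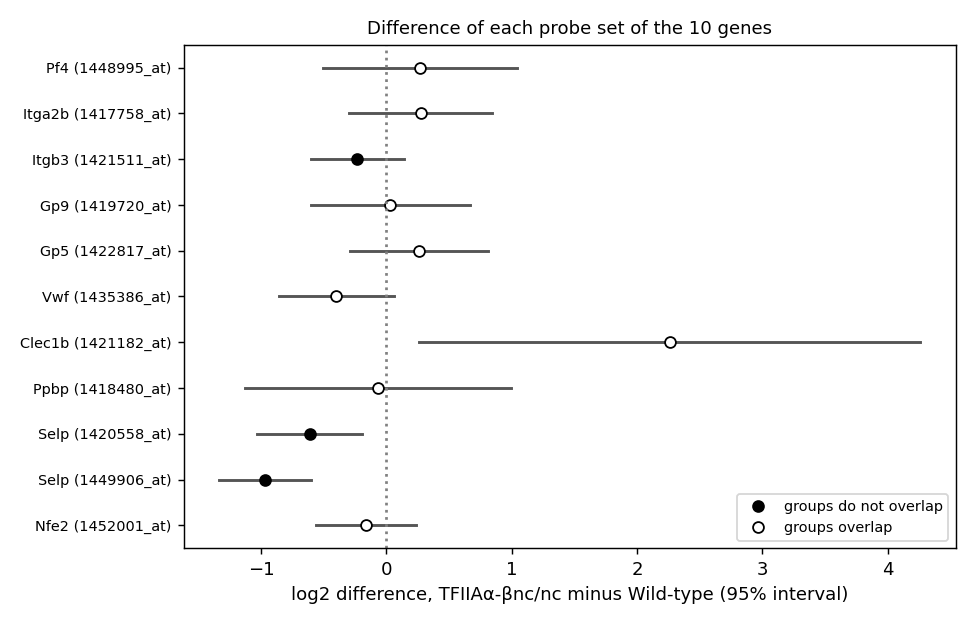
Log2 difference in intensity, TFIIAα-βnc/nc minus Wild-type, of each of the 11 probe sets (points) with its 95% interval from limma over all 22626 probe sets (lines). Filled points mark probe sets whose groups did not overlap, and the interval excludes 0 for both Selp probe sets and for Clec1b, none of which passed after adjustment. For Clec1b the unadjusted p was 0.117 without limma's moderation.

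The remaining platelet genes were followed in 6 lists by role. Together they held 95 measured genes, and 0 passed the adjusted threshold in limma over all genes (smallest adjusted p 0.934). Their differences were positive for 42 and negative for 53, where over all genes 5955 were positive and 6438 negative. At an unadjusted p under 0.05, 2 were higher and 7 lower, where 2.12% of all genes were higher and 2.53% lower. Lower without overlap were 2 of 16 transcription factors, 2 of 22 signalling genes, 1 of 20 granule genes and 1 of 4 eicosanoid genes. Higher without overlap were 2 of 19 other receptors and 1 of 20 granule genes, where 6.30% of all genes did not overlap. The 14 cytoskeletal genes all overlapped.

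Of 16 megakaryocyte transcription factors, 10 had positive and 6 negative differences, with a median of 0.02. Gata1, which drives megakaryocyte and red cell fates, differed by 0.10 (SE 0.16), Gata2 by 0.00 (SE 0.15) and Runx1 by 0.28 (SE 0.35). Mafg and Mafk, the small Maf partners of NF-E2, differed by 0.14 (SE 0.21) and 0.00 (SE 0.14). The smallest p values belonged to Lmo2 and Ldb1, which bridge GATA and TAL1 factors on DNA, and to Myb. Lmo2 read 9.97, 9.89 and 9.91 in TFIIAα-βnc/nc, against 10.12, 10.42, 10.55 and 10.15 in Wild-type. The groups did not overlap, and the difference was −0.38 (SE 0.15, adjusted p = 0.934 in limma over all genes). Ldb1 differed by −0.48 (SE 0.31) and Myb, which restrains megakaryocyte output, by −0.30 (SE 0.17).

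Of 19 other platelet surface receptors measured, 10 differences were positive and 9 negative, with a median of 0.03. F2r, the thrombin receptor PAR1 that acts on platelets in humans, read 9.28, 9.50 and 9.19 in TFIIAα-βnc/nc, against 9.14, 8.87, 8.02 and 8.85 in Wild-type. Every TFIIAα-βnc/nc sample lay above every Wild-type sample, with a difference of 0.60 (SE 0.25, adjusted p = 0.934 in limma over all genes). It was 0.34 with the F2r probe set of largest interquartile range and 0.37 without Wild-type replicate 3. F2rl2, the related receptor PAR3 that serves thrombin sensing on mouse platelets, was dim and differed by 0.36 (SE 0.15), without overlap. P2ry1, an ADP receptor, was also dim and differed by −0.62 (SE 0.23), with overlapping groups. The widest difference of the list, 1.44 (SE 1.32), was that of Cd36, named after its values were seen. Cd36 read 6.11, 6.42 and 2.56 in TFIIAα-βnc/nc, against 7.29, 2.45, 2.47 and 2.16 in Wild-type. It was thus high in the arrays with high endothelial markers, of both genotypes.

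Of 22 genes of platelet activation signalling, 7 differences were positive and 15 negative, with a median of −0.12. Orai1 and Stim1 form the channel and sensor of store-operated calcium entry. Orai1 read 6.30, 6.19 and 6.23 in TFIIAα-βnc/nc, against 6.44, 6.59, 6.82 and 6.69 in Wild-type, without overlap (difference −0.40, SE 0.14). Stim1 differed by −0.48 (SE 0.21), with Wild-type replicate 1, at 5.87, among the TFIIAα-βnc/nc values of 5.79 to 6.02. The Src family kinase Fyn differed by 0.51 (SE 0.23). The adjusted p was 0.934 for each of these 3 genes (limma over all genes).

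Of 20 genes of granule cargo and granule formation, 5 differences were positive and 15 negative, with a median of −0.06. F5, coagulation factor V, read 3.48, 4.13 and 4.93 in TFIIAα-βnc/nc, against 4.79, 5.01, 4.99 and 5.19 in Wild-type. It was low in TFIIAα-βnc/nc replicates 1 and 2 only, and the difference was −0.82 (SE 0.29). Without TFIIAα-βnc/nc replicate 1 it was −0.47, and with the 4 arrays of low endothelial markers −0.14. Hps1, a factor of dense granule formation, differed by −0.54 (SE 0.22), with overlapping groups. Stxbp2, which serves granule release, differed by −0.40 (SE 0.19), without overlap. The widest positive difference of the list, 2.13 (SE 1.52), was that of Sparc, named after its values were seen. Sparc, a matrix protein of platelets and endothelium, read 8.64, 9.44 and 4.36 in TFIIAα-βnc/nc, against 9.28, 4.92, 3.60 and 3.61 in Wild-type, and was thus high in the arrays with high endothelial markers.

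Of 14 cytoskeletal genes measured, 7 differences were positive and 7 negative, with a median of 0.00, and 0 had an unadjusted p under 0.05. Rac1, a GTPase of platelet spreading, differed by −0.33 (SE 0.20), the tropomyosin Tpm4 by 0.44 (SE 0.31; 0.046 with mean endothelial level as a covariate) and the myosin light chain Myl9 by 0.18 (SE 0.16). Of 4 eicosanoid genes measured, 3 differences were positive and 1 negative. Alox5ap, which presents arachidonic acid to 5-lipoxygenase and is active in myeloid cells, read 8.90, 8.83 and 8.99 in TFIIAα-βnc/nc, against 9.22, 9.49, 9.67 and 9.71 in Wild-type. The groups did not overlap, and the difference of −0.62 (SE 0.16) had an unadjusted p of 0.00357, the 37th smallest of 12393 genes, and an adjusted p of 0.934 (limma). Alox12, the platelet lipoxygenase, was dim and differed by 0.47 (SE 0.23), and Pla2g4a by 0.24 (SE 0.20).

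**Figure D4:**
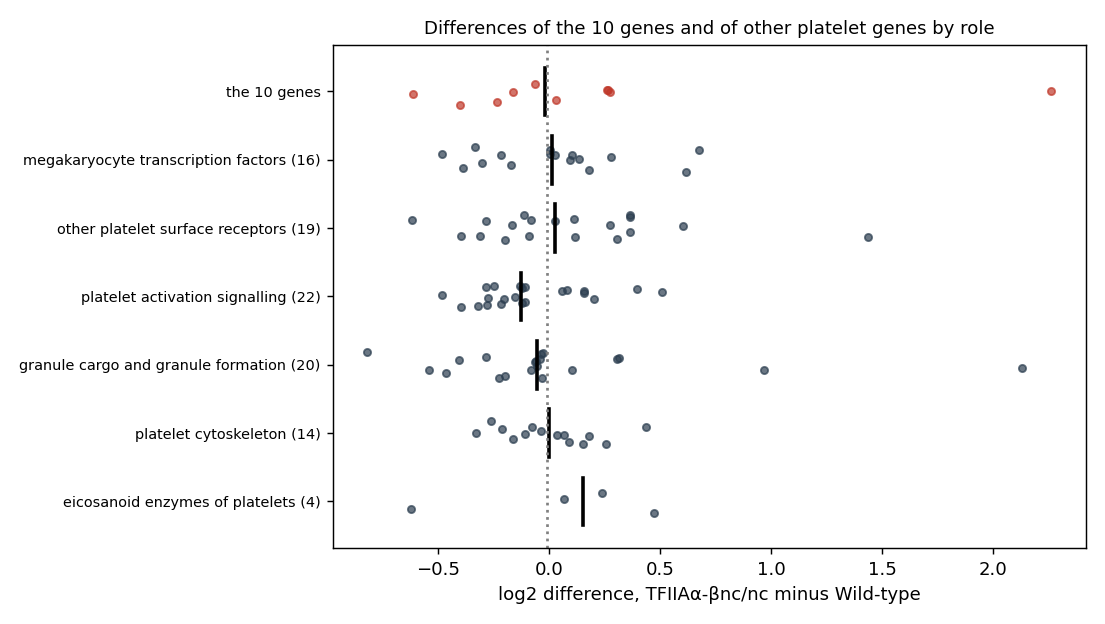
Log2 difference, TFIIAα-βnc/nc minus Wild-type, of the 10 genes (top row) and of other platelet genes by role (rows below, number of measured genes in brackets). Each point is a gene, black bars are list medians and the dotted line is the median of all genes, −0.0099. The medians lie between −0.12 and 0.16, and the points far to the right are Clec1b, Sparc and Cd36.

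The genes whose levels followed the widest-ranging of the 10 most closely over the 7 arrays were listed as a description. For Clec1b they were Slc12a5, Nde1, Gadd45g, Rpn1 and Masp2 (Pearson r 0.973 to 0.982). Rpn1, a subunit of the oligosaccharyltransferase, read 10.41, 10.39 and 10.16 in TFIIAα-βnc/nc, against 10.34, 9.97, 9.74 and 9.87 in Wild-type, with its 4 highest values in the same 4 arrays as Clec1b but over a far smaller range. For Pf4 they were Erlin1, Rabep1, Kcnd3, Fdft1 and Bola2 (r 0.973 to 0.983), and for Ppbp Pld4, Pcdh15, Dact1, Cyp7a1 and Guca2a (r 0.965 to 0.982). None of these 15 genes was among the 10 or in the 6 lists of platelet genes. The correlations rest on 7 points, among them the 3 arrays with high endothelial markers, and Pld4, Pcdh15, Cyp7a1, Guca2a, Kcnd3 and Masp2 were below the array medians in every sample. Each set was picked as the highest r among 12393 genes. That choice alone favours high values with so few points, and how high was not tested.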

How the data were processed

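The authors deposited an RMA intensity for each probe set, and the submitters' processing notes name Affymetrix Expression Console without a version. RMA subtracts background, equalises the distributions of the arrays and summarises each probe set. The values were on a linear scale, so log2 was taken without a pseudocount. Detection calls and scan dates were not used here, and batches of arrays were not tested. The number of arrays limits the precision.

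Of 22690 probe sets, 64 controls were left out. Annotation gave 1 gene for 20380 probe sets, several for 691 and none for 1555, with symbols updated through Entrez identifiers (12369 of 12393 genes matched GRCm38.p6 RefSeq). A gene was represented by its probe set of highest mean. The groups were set against each other in limma 3.58.1 (lmFit, eBayes; R 4.3.3), without covariates, once over 12393 genes and once over 22626 probe sets, with 2-sided p-values adjusted by Benjamini-Hochberg. The fit was also run on 20 simulated sets with 200 changed genes and noise independent between genes. These lacked the endothelial pattern shared by 3 arrays, so they cannot show how it affects the comparison. The labels call the samples biological replicates. The 10 genes, the lists and the alternatives were chosen with earlier results of these data known. Named genes were the 10, Gtf2a1, in each list up to 3 of smallest p where none passed, and 5 genes most like each of 3 of the 10. Other genes were named as background or after their values were seen. Plots used matplotlib 3.10.9 in Python 3.11.15.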

Additional observations from a re-analysis of the deposited data

Results flagged for a closer look

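Among the 29 values examined in the 4 Wild-type samples, Wild-type replicate 1 stood far from the other 3 in 2. Clec1b (1421182_at) read 6.39 there and 2.37 to 2.81 in the others, a gap of 0.891 of the whole range, past Dixon's 95% critical value for 4 samples. Tpm4 read 8.94 there and 7.82 to 7.92 in the others, a gap of 0.912 of the range. Chance alone flags about 5% of such groups. This sample held 1 embryo and had high mean levels of endothelial and hepatocyte markers. In TFIIAα-βnc/nc Tpm4 read 8.73 and 8.90 in the samples with high endothelial markers and 8.08 in replicate 3. With mean endothelial level as a covariate the genotype difference was 1.14 for Clec1b, against 2.26 without it, and 0.046 for Tpm4, against 0.44 without it. The part of hepatocyte transcripts was not tested.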

How the results depend on the processing

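Of 21 other settings, the number of the 10 genes past the threshold was 0 in all but the one without Wild-type replicate 1, where it was 1, Clec1b. The number of their 11 probe sets past the threshold over all 22626 was 0 in each of the settings that count was made for, which excludes those on filters and on the choice of probe set. Over all genes, 1 gene, Galc, passed in the main comparison, against 0 with only genes at log2 6 on 3 arrays or without moderation, 2 with embryo number as a covariate, 3 with pooled samples only, 2 with the 4 arrays of low endothelial markers, and 1 to 3 when each array was left out in turn, 3 being without Wild-type replicate 1. Galc itself was not among the genes at log2 6 on 3 arrays. Members of the lists passed in none of the settings. The Clec1b difference was 1.88 to 3.22 with each array left out, 3.34 with pooled samples only (limma, adjusted p = 0.0657) and 1.14 with mean endothelial level as a covariate. The fit on pooled samples left out Wild-type replicates 1 and 2. It thus kept both TFIIAα-βnc/nc samples with high endothelial markers but no Wild-type sample with them. Both Selp probe sets stayed negative in every setting run, 1420558_at at −0.50 to −0.69 and 1449906_at at −0.88 to −1.08 with each array left out. Gp9, near 0, turned to −0.013 with array weights, −0.059 with embryo number, −0.40 with pooled samples, −0.22 with the 4 arrays and −0.19 to 0.19 with each array left out, negative without TFIIAα-βnc/nc replicate 1 and without Wild-type replicates 1 or 2. Ppbp turned to 0.11 with array weights, 0.0095 with embryo number, 0.52 with pooled samples, 0.94 with the 4 arrays and −0.33 to 0.40 with each array left out, positive without TFIIAα-βnc/nc replicate 1 and without Wild-type replicate 1. Pf4 was −0.0098 without Wild-type replicate 3 and 0.56 without Wild-type replicate 1, and Alox12 was −0.13 with the 4 arrays. Single arrays also moved Fyn (0.32 without Wild-type replicate 3), Ldb1 (−0.22 without Wild-type replicate 4), Rac1 (−0.21 without Wild-type replicate 3), Myl9 (0.029 without TFIIAα-βnc/nc replicate 2), Alox12 (0.30 to 0.76), Pla2g4a (0.093 to 0.35) and Tpm4 (0.27 to 0.71). The cause was not tested. The replicate numbers did not pair the samples, with correlations of deviations of 0.382, −0.194 and 0.106 for numbers 1 to 3. With the replicate number as a block, Clec1b differed by 1.92 and Selp by −0.54, 1 gene passed over all genes and 0 of the 10. Signal near background limits Itgb3 and Ppbp.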
